A study of Mus musculus with 19 samples.

Results

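Bidirectional promoters bound by STRA8 were examined, together with the pairs of genes that are transcribed away from them. STRA8 binding sites were taken as the summits (the positions of highest read density) called in FLAG ChIP-seq of Stra8 FLAG/FLAG testes. Members were selected on the positions of these summits. A summit of FLAG/FLAG replicate 1 was a member if it had a summit within 200 bp in replicate 2 or replicate 3, had no summit within 1 kb in any wild-type library, and lay within 1 kb of transcription start sites (TSSs) of 2 protein-coding genes on opposite strands. Of 5687 summits, 2703 had a partner, 2568 of these had no wild-type summit nearby, 2274 were at a promoter, and 314 met the whole rule. The 314 summits were 13.8% of the reproducible promoter summits and marked 303 gene pairs with 605 genes. Eaf2 stood in 2 pairs, 11 pairs held more than 1 summit, and 5 summits had a further gene within 1 kb.

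Binding and expression came from different mice and different cells. ChIP-seq used whole, unsorted testes of 3 wild-type and 3 Stra8 FLAG/FLAG males (C57BL/6 with under 4% 129), in which the FLAG tag stands on the long STRA8 isoform. RNA-seq used preleptotene spermatocytes sorted from C57BL/6 males that carried Ddx4-Cre and a Rosa26-tdTomato reporter, alleles shared by every RNA library, so that germ cells were labelled by their lineage. There were 3 libraries of Stra8 knock-out cells (Stra8-deficient, or without STRA8), and 2 low-STRA8 and 2 high-STRA8 libraries of Stra8 heterozygous cells. The last 2 groups were told apart by the STRA8 staining of a testis biopsy. The paper places low-STRA8 cells early in the preleptotene stage, just ahead of meiotic initiation. It places high-STRA8 cells in the middle or late part of that stage, after initiation. Stage and STRA8 level cannot be told apart between these 2 groups. Stra8-deficient cells, in the paper's account, arrive at the preleptotene stage but do not initiate meiosis. Between them and the heterozygous groups, genotype, STRA8 and progress through the stage cannot be told apart either. All mice of both assays received WIN18,446, an inhibitor of retinoic acid synthesis, on postnatal days 2 to 8 and retinoic acid on day 9, and were collected 6.75 days later, when preleptotene cells prevail. The labels do not say which animals gave which RNA library, so p-values measure the spread between these libraries, and no group has a sample without the synchronizing drugs.

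A bidirectional promoter is a short, usually GC-rich stretch of DNA from which a pair of genes is transcribed in opposite directions, head to head. Many such pairs join housekeeping genes of DNA repair, replication or mitochondria, and some have been known for decades, among them Brca1 with Nbr1 and the mitochondrial chaperonins Hspd1 and Hspe1. STRA8 is a protein of nucleus and cytoplasm that germ cells make in response to retinoic acid. It is required for the start of the meiotic cell cycle, at the preleptotene stage, when the premeiotic S phase takes place. The comparison asked here was whether the genes on both sides of a bound promoter differed together between cells with and without STRA8.

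The windows around 2 of the strongest member summits are given first, because they hold the 8-base motif CNCCTCAG (N is any base) outside every annotated exon. Capitals mark the match, which in both lies on the minus strand, and the sequence is the plus strand of the RefSeq copy of the mm10 assembly (GRCm38.p6). The window of Lrrc42 and Hspb11, with a score of 188 (−log10 of the MACS2 p-value), is chr4:107253764-107253863. The window of Rad51ap1 and D6Wsu163e, with a score of 74.7, is chr6:126939637-126939736.
Lrrc42/Hspb11: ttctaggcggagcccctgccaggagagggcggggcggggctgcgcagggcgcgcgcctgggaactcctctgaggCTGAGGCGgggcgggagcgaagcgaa
Rad51ap1/D6Wsu163e: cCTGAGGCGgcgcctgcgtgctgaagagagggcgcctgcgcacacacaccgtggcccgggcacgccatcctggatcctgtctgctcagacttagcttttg

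In another 4 pairs the whole stretch between the TSSs is free of annotated exons and holds no CNCCTCAG. They were chosen, after their values were seen, because 2 of the pairs had both genes higher in high-STRA8 cells (Smc1b with Ribc2, Rad51c with Tex14), 1 had a single gene higher (Syngr4 with Tmem143) and 1 had genes that went apart (Washc5 with Nsmce2). The capitals mark the summit base and up to 3 bases on each side. The stretches are chr15:85131965-85132077 (113 bp, 54.9% GC), chr11:87404955-87405064 (110 bp, 75.5% GC), chr7:45896715-45896940 (226 bp, 54.0% GC) and chr15:59374168-59374246 (79 bp, 72.2% GC), all on the plus strand. They held 13, 15, 21 and 10 CpG dinucleotides.
Smc1b/Ribc2: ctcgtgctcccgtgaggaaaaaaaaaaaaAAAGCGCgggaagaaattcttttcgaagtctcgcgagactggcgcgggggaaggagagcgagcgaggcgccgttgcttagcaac
Rad51c/Tex14: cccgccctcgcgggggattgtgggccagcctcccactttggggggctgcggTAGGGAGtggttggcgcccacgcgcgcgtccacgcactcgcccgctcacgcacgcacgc
Syngr4/Tmem143: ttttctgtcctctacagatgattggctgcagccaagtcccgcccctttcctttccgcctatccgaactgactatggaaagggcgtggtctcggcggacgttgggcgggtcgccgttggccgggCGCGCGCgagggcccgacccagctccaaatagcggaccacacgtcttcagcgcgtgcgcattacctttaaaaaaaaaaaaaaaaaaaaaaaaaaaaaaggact
Washc5/Nsmce2: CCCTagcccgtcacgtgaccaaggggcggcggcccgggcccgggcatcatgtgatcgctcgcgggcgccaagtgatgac

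Stra8 itself followed its labels. It was at 18.1, 23.0 and 5.20 TPM (a share of the transcripts, corrected for transcript length and library size) in the 3 Stra8-deficient libraries, at 318 and 238 TPM in the low-STRA8 libraries and at 1107 and 1258 TPM in the high-STRA8 libraries. The libraries held between 25049625 and 30015072 estimated counts, and all 72 genes of a list of meiotic prophase genes exceeded 1 TPM in at least 1 library. Of 35 markers of somatic and other germ cells, 14 to 24 exceeded 1 TPM in a library, 12 did so in every library (among them the Sertoli cell genes Sox9, Wt1 and Amh), and Pgk2 was at 0 in all 7. Their summed level was 512 to 696 TPM in Stra8-deficient, 171 to 487 TPM in low-STRA8 and 577 to 639 TPM in high-STRA8 libraries, none of them is a gene of a member pair, and their part in the results was not tested.

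The 2 TSSs of a pair lay close together, and the summits lay close to both (the plot of start sites around the summits). In 245 pairs the genes diverged without overlap, with a median of 181 bp between their TSSs and quartiles of 92 and 328 bp. In the other 58 pairs the 5′ ends overlapped, by up to 1546 bp. The library kit marks strand, but whether the quantification used the strand is not given in the sources used here, so that reads from the overlapping ends of such pairs may not be told apart. The median summit was 59 bp from the nearer TSS and 248 bp from the farther one. Of the 314 summits, 101 lay between TSSs that diverge and 154 lay beyond one of them, inside a gene. The other 59 belonged to pairs with overlapping ends, whether or not the summit lay in the overlap.

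**Figure D1:**
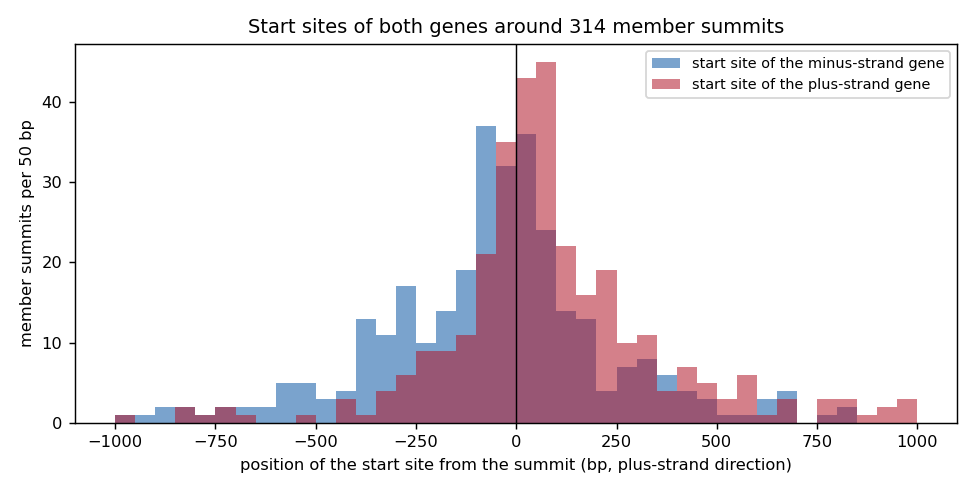
Histogram of the distance in bp (x axis, 50-bp bins) from each of 314 member summits to the TSS of the minus-strand gene (blue) and of the plus-strand gene (red), with the number of summits on the y axis. Both distributions peak within about 100 bp of the summit, the minus-strand starts shifted to its left and the plus-strand starts to its right.

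The score of a summit, −log10 of its MACS2 p-value, ranged from 6.07 to 227 in FLAG/FLAG replicate 1, with a median of 20.9, against 5.47 to 372 and a median of 22.3 for the 1960 reproducible summits at promoters of genes on 1 strand. Scores depend on the depth of a library and were compared only within it. Of the members, 160 had a partner in both other FLAG/FLAG libraries, 128 only in replicate 2 and 26 only in replicate 3, which was made with another library kit (Accel-NGS 2S Plus, against TruSeq ChIP). The share found in all 3 libraries was 51.0% of the members and 46.3% of the summits at 1-strand promoters. At the edge of the rule, the summit of 1700029J07Rik and Ufsp2, score 11.1, was kept with a partner at 198 bp, and that of Ankrd49 and Mre11a, score 19.7, was left out with its nearest partner at 202 bp. In all, 238 bidirectional summits with no wild-type summit nearby had no partner, 6 with a partner had a wild-type summit within 1 kb, and the farthest TSS of a member was 988 bp away.

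CNCCTCAG, searched on both strands within 50 bp of the summit, was present at 37 of 314 member summits (11.8%, Wilson 95% interval 8.67 to 15.8%). The share was 15.7% (14.2 to 17.4%) at summits of 1-strand promoters and 3.73% (3.50 to 3.98%) in windows of the same length around 24760 TSSs of all expressed genes. Members with a match had a median score of 28.6 and those without one of 20.7. In the 31 pairs with a single match at their strongest summit, the match lay on the strand of the gene with the larger fold change (high-STRA8 against Stra8-deficient) in 10. Windows at member summits had a median of 69.0% GC and 11 CpG, those at 1-strand promoters 72.0% and 12, and those at all expressed TSSs 65.0% and 8. Other short promoter motifs, also searched on both strands, were at 2.55% of members for GGCGGGAA (an E2F-type site, 1.39% of all expressed TSSs), 3.50% for CCGGAAGT (an ETS-type site, 4.53%), 2.55% for CGCATGCG (the core of an NRF1 site, 1.57%) and 10.5% for CCAAT (12.7%). At summits of 1-strand promoters these 4 motifs were at 3.06%, 2.91%, 2.45% and 7.14%, in the same order. The 4 motifs were chosen after the data were seen. Only the search for CNCCTCAG entered the alternatives given in the closing section.

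Genes at the member promoters that differed between high-STRA8 and Stra8-deficient cells were mostly higher in the cells with STRA8. Of the 605 genes, 590 exceeded 1 TPM in a library and were tested by edgeR with adjustment over all 12523 such genes, and 266 were higher and 38 lower. Over all genes tested, 18.8% were higher and 18.3% lower, against 45.1% and 6.44% of the pair genes, and the genes at 1-strand summits stood at 49.7% and 5.18%. The median log2 fold change was 0.32 for the pair genes, 0.37 for the genes at 1-strand summits and −0.02 for all genes. The rule used ChIP summits and no expression value. The high-STRA8 libraries were above every Stra8-deficient library for 320 of the 590 genes (27.9% of all genes were) and below every one for 113 (39.3% of all genes were). In such bulk libraries, fewer cells of a type and less RNA per cell cannot be told apart. Without high-STRA8 replicate 2 there were 172 genes higher and 7 lower, without replicate 1 there were 181 and 11, and without Stra8-deficient replicate 3 there were 242 and 24.

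Both genes could be tested in 289 of the 303 pairs. In 70 of them (24.2%) both genes were higher in high-STRA8 cells, against 9.89% of all 1052 head-to-head pairs tested. That set includes the member pairs. Taken singly, 45.1% of the tested pair genes were higher, against 18.8% of all genes tested. In every comparison, the share of pairs with both genes higher rises with such a rate for single genes. Alone it does not show that the 2 genes differed together. In 114 pairs (39.4%, against 25.8% of all such pairs) 1 gene was higher and the other did not pass. In 9 (3.11%, against 2.00%) the genes went in opposite directions. In 22 (7.61%, against 19.5%) 1 gene was lower, and in 2 (0.692%, against 3.99%) both were lower. Neither gene passed in 72 (24.9%, against 38.9%). Of the 763 head-to-head pairs without a member summit, 34 (4.46%) had both genes higher, and of the 460 with no summit of any FLAG/FLAG library at either gene, 6 (1.30%) did. The fold changes of the 2 genes of a member pair had a Pearson r of 0.31 (across 289 pairs, which share the same 5 libraries), against 0.20 across the 763 other head-to-head pairs, and the median difference between them was 0.49 on the log2 scale. Without high-STRA8 replicate 1 the pairs with both genes higher numbered 39, and without replicate 2 they numbered 38.

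**Figure D2:**
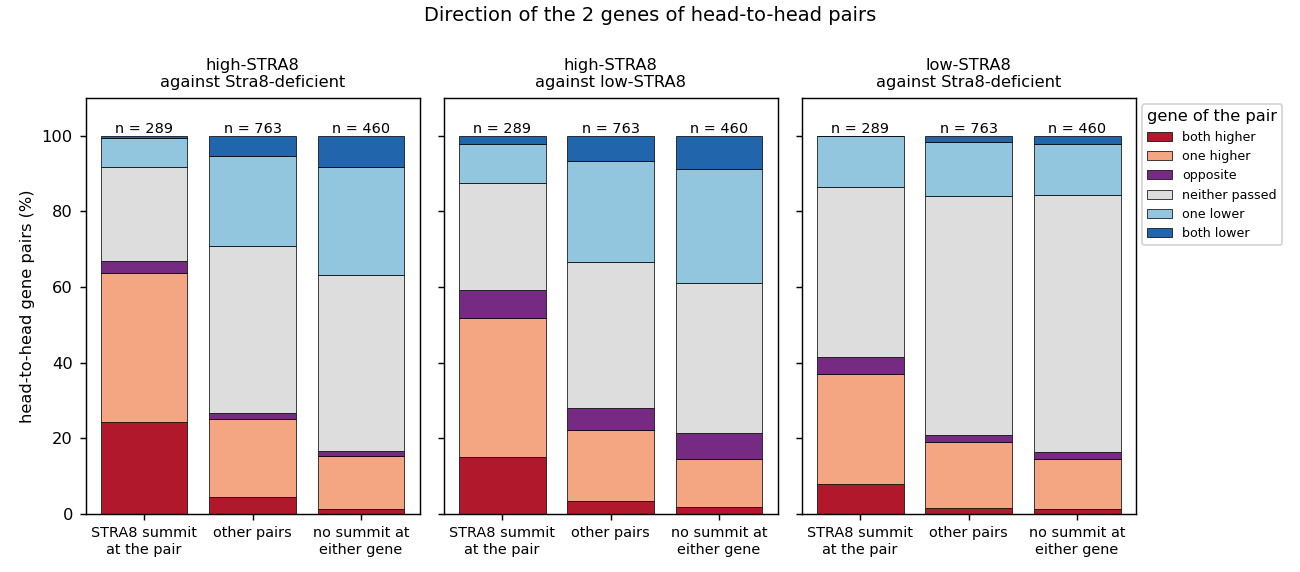
Stacked bars of the percentage of head-to-head gene pairs (y axis) by the direction of their genes at an edgeR adjusted p under 0.05, in 3 comparisons, for pairs at member summits, all other head-to-head pairs, and those with no FLAG/FLAG summit at either gene. In high-STRA8 against Stra8-deficient cells, both genes were higher in 24.2% of the pairs at member summits, 4.46% of the others and 1.30% of those with no summit.

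Among pairs with a higher summit score, more had both genes higher. The pairs were put into 3 groups of rising score in FLAG/FLAG replicate 1, and both genes were higher in 11 of 97 pairs with scores from 6.07 to 16.7, in 18 of 95 with scores from 16.8 to 28.8 and in 41 of 97 with scores from 29.0 to 227. At least 1 gene was higher in 55.7%, 65.3% and 79.4% of these pairs. The rate for single genes thus rose with the score as well. Whether the genes of a pair went together more often at high scores was not tested. The gene with the smaller fold change had a median log2 fold change of −0.05, 0.03 and 0.24 in the 3 score groups, and its partner 0.50, 0.69 and 0.83. Of 145 pairs whose summit was in all 3 FLAG/FLAG libraries, 54 had both genes higher, against 16 of the other 144. Pairs whose summit had a CNCCTCAG match had both genes higher in 13 of 36 cases and the rest in 57 of 253.

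**Figure D3:**
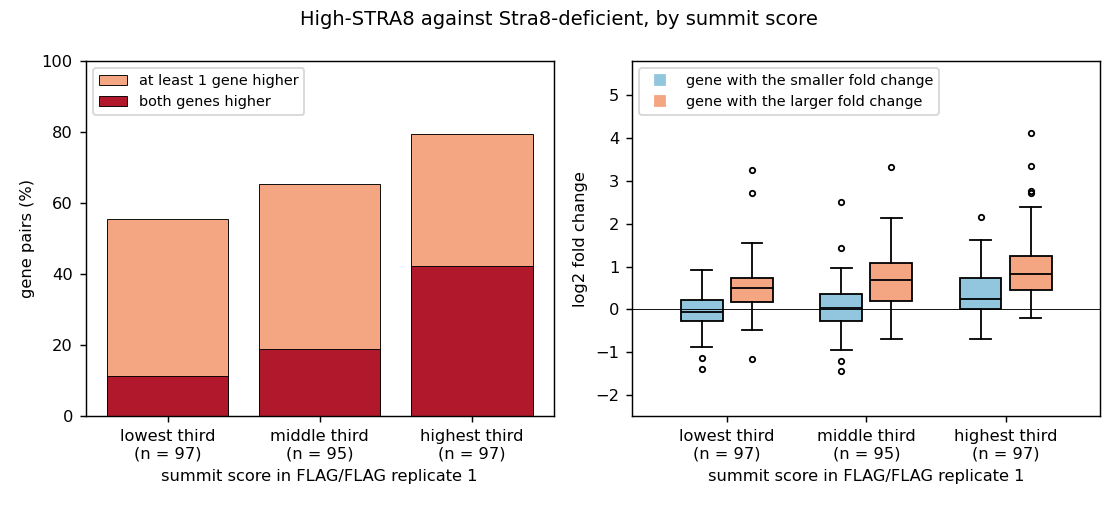
Left, percentage of gene pairs with both genes (dark red) or at least 1 gene (whole bar) higher at high STRA8 (against Stra8-deficient cells), by group of the summit score. Right, box plots (median, quartiles, whiskers to 1.5 times the interquartile range, points beyond) of the log2 fold change of the gene with the smaller and the larger fold change in each pair. Both medians are highest at the highest scores, at 0.24 and 0.83.

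The counts also differed by the layout of the promoter. Both genes were higher in 30 of 98 pairs with a summit between diverging TSSs, in 30 of 140 with a summit inside a gene and in 10 of 51 with overlapping ends. The gene with the nearer TSS had the larger log2 fold change in 166 of 289 pairs, with a median of 0.41 against 0.25 for its partner. The gene that was more abundant in Stra8-deficient cells had the larger fold change in 126. The tested pair genes had a median of 43.6 TPM without STRA8 and 55.4 TPM at high STRA8, against 26.5 and 25.1 TPM for all genes tested. The 2 genes of a pair differed in level by a median of 3.18-fold, and by over 10-fold in 57 pairs.

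The largest joint rises are given by the gene that rose least. Tk1, thymidine kinase of the salvage route to dTTP, was at 8.49, 8.45 and 8.08 TPM in the 3 Stra8-deficient libraries, at 57.1 and 29.9 TPM in the 2 low-STRA8 libraries and at 80.4 and 78.4 TPM in the 2 high-STRA8 libraries. Its partner Afmid, arylformamidase of tryptophan breakdown, was at 2.36, 1.70 and 2.11, then 5.84 and 4.85, then 11.6 and 10.5 TPM. For both genes the 3 groups lay in this order, with no overlap between them. High-STRA8 against Stra8-deficient cells, Tk1 rose by 3.32 ± 0.22 (log2 fold change ± SE, edgeR adjusted p = 6.7e-05) and Afmid by 2.51 ± 0.21 (edgeR adjusted p = 0.00012). Their 5′ ends overlap by 168 bp, and their summit scored 19.9. The summit lay outside the overlap, 602 bp from the Tk1 TSS and 434 bp from the Afmid TSS. It had a partner in FLAG/FLAG replicate 3 only. Eaf2, an elongation-associated factor, and Iqcb1, a ciliary protein, shared one of the strongest summits (score 158). Eaf2 was at 8.93, 9.11 and 10.8 TPM without STRA8 and 52.5 and 58.1 TPM at high STRA8, and Iqcb1 at 118, 113 and 105 against 469 and 469 TPM. The rises were 2.71 ± 0.24 and 2.15 ± 0.12, with no overlap of the libraries. The level of Eaf2 also includes transcripts from another start, away from Iqcb1.

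Smc1b, the meiosis-specific subunit of cohesin, was at 318, 372 and 209 TPM in the Stra8-deficient libraries, below that at 206 and 173 TPM in the low-STRA8 ones, and at 746 and 846 TPM in the high-STRA8 ones. Ribc2, a protein of ciliary and flagellar microtubules across a 114-bp gap, was far less abundant, at 3.97, 3.96 and 3.25, then 5.86 and 6.84, then 9.58 and 11.2 TPM. Against Stra8-deficient cells Smc1b rose 2.82-fold (log2 SE 0.20) and Ribc2 by 1.56 ± 0.22 on the log2 scale, a difference of 0.04 (95% interval −0.48 to 0.56). Against low-STRA8 cells they did differ: Smc1b rose by 1.98 ± 0.23, Ribc2 had 0.59 ± 0.24 without passing, and the interaction had an edgeR adjusted p of 0.00098. Also near the top of this order were Lypd4 with Dmrtc2, a DMRT factor of male meiosis (2.39 and 1.63), Prr11 with the kinetochore gene Ska2 (1.77 and 1.43), Gm10644 with the histone chaperone Asf1b (2.34 and 1.42) and the augmin subunit Haus8 with Myo9b (1.73 and 1.33). All 7 of these pairs had both genes higher whichever library was left out.

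**Figure D4:**
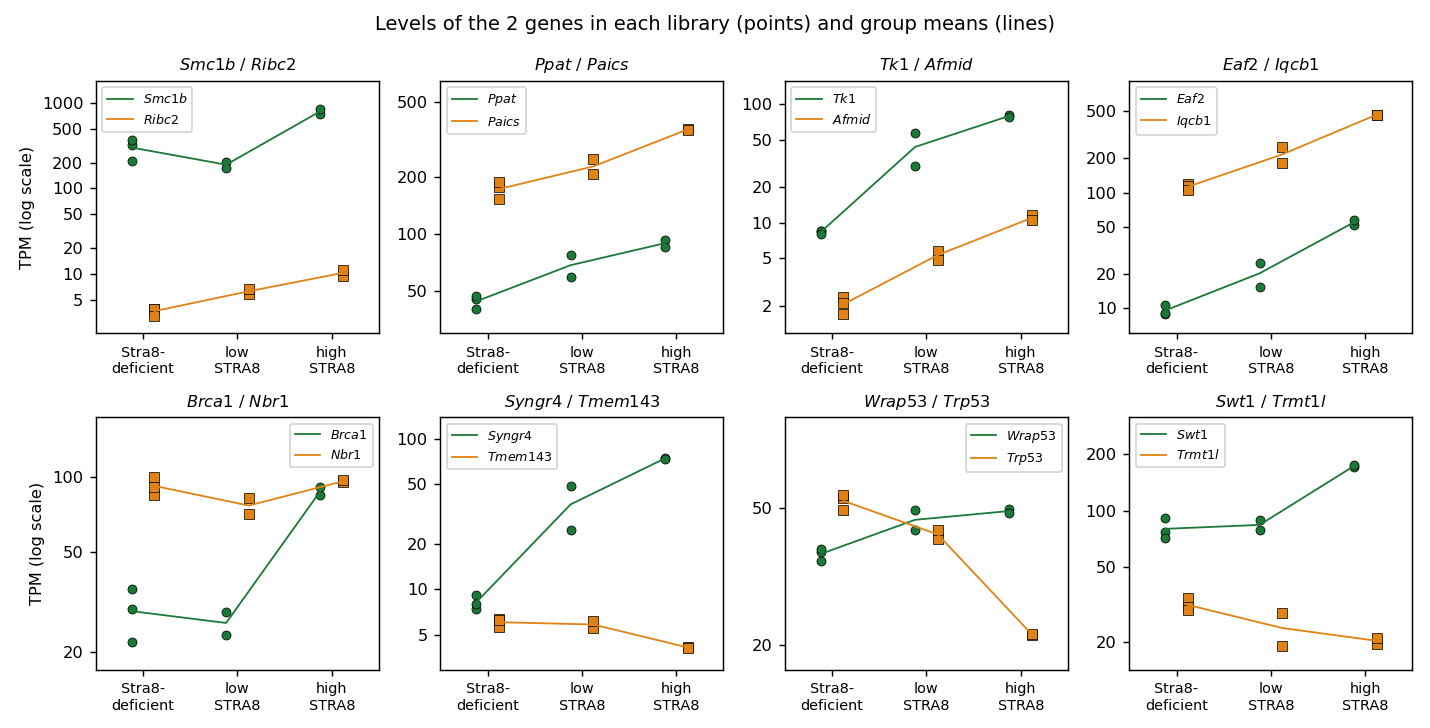
Level in TPM (log axis) of the 2 genes of 8 pairs in each of 7 libraries (points) with the group means joined by lines, green for the minus-strand gene and orange for the plus-strand gene. The upper pairs rise together from Stra8-deficient to high-STRA8 cells. In the lower pairs Brca1, Syngr4 and Swt1 rise without their partners, and Trp53 falls from 53.2, 49.2 and 54.4 TPM to 21.3 and 21.5 TPM while Wrap53 rises.

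Equal and unequal changes were told apart by a test of the difference itself, an interaction of gene and group fitted over all 1052 head-to-head pairs. The genes changed unequally in 136 of 289 member pairs (47.1%), against 36.6% of all such pairs. Among the 70 pairs with both genes higher, 30 changed unequally, and among the 114 with a single gene higher, 81 did. In the other 33 of these 114 the difference between the genes was not past the threshold, so that a single call there does not show a change on 1 side only. Without high-STRA8 replicate 1 the unequal pairs numbered 75, and without replicate 2 they numbered 56.

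**Figure D5:**
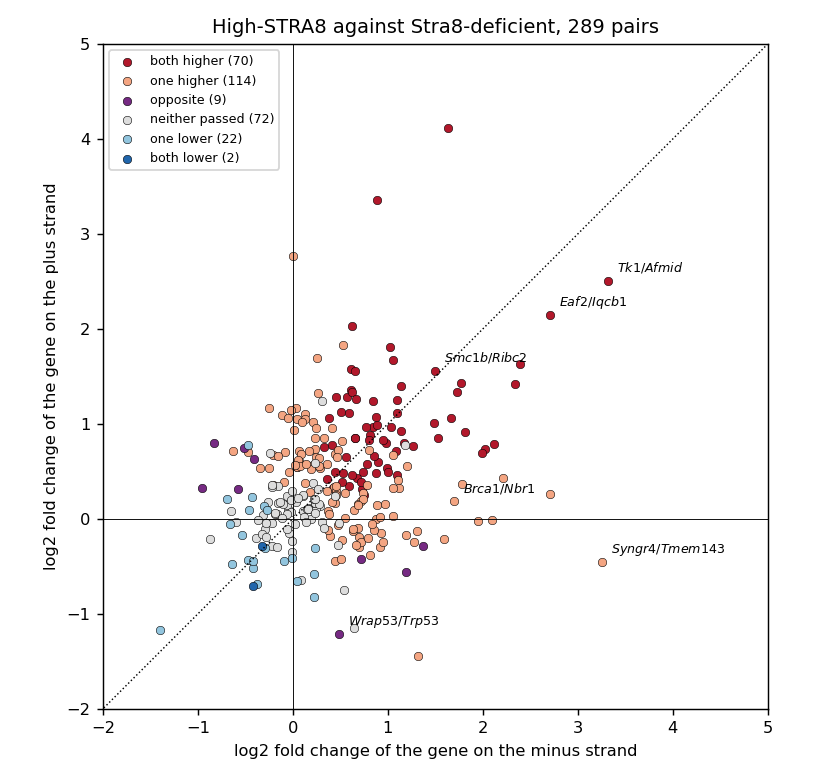
Log2 fold change of the minus-strand gene (x axis) and of the plus-strand gene (y axis) in 289 member pairs, high-STRA8 against Stra8-deficient cells, coloured by the direction of the calls; the dotted line marks equal change. Most points lie above 0 on at least 1 axis, and 166 pairs have both fold changes above 0.

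The largest difference was that of Syngr4, a synaptogyrin, and Tmem143, whose promoter had one of the weaker summits (score 8.70). Syngr4 was at 7.44, 9.21 and 7.99 TPM without STRA8 and at 75.5 and 73.7 TPM at high STRA8, while Tmem143 was at 6.31, 5.61 and 6.24 against 4.16 and 4.06 TPM. Syngr4 rose by 3.26 ± 0.25, Tmem143 had −0.46 ± 0.19 without passing, and the difference between them was 3.71 ± 0.32 (edgeR interaction adjusted p = 0.00012).

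Lrrc46 rose by 2.09 ± 0.23 across a 153-bp gap from Mrpl10, of the mitochondrial ribosome, which had −0.01 ± 0.11. Cbx5, heterochromatin protein HP1α, rose from 37.6, 33.6 and 26.6 to 89.3 and 84.7 TPM, by 1.59 ± 0.14. The splicing factor gene Hnrnpa1 beside it was at 444, 380 and 400 against 343 and 325 TPM, with −0.22 ± 0.10. Slc25a25, a mitochondrial carrier, rose by 2.21 ± 0.13 and Naif1 had 0.43 ± 0.15, with 5′ ends that overlap by 965 bp. Eaf2 also stands head to head with the Golgi gene Golgb1, at a second summit of score 14.5 (chr16:36875218). This summit is by another Eaf2 start than the one beside Iqcb1 (summit chr16:36828550). The level of Eaf2 is summed over all its transcripts, so its rise cannot be assigned to either promoter. Golgb1 was at 23.1, 23.8 and 14.5 TPM without STRA8, at 2.30 and 3.20 TPM at low STRA8 and at 21.5 and 25.5 TPM at high STRA8, with 0.27 ± 0.24 between the first and the last. Together with Swt1 and Wrap53, described next, these were 7 of the 8 pairs of largest difference with both genes at 5 TPM or more in a group, and all 7 stayed past the interaction threshold without any 1 library.

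In 9 pairs 1 gene was higher and the other lower. Trp53, which encodes p53, fell from 53.2, 49.2 and 54.4 to 21.3 and 21.5 TPM, by 1.21 ± 0.12 on the log2 scale (edgeR adjusted p = 0.00023). Wrap53, a telomerase cofactor of Cajal bodies, rose from 35.0, 37.3 and 37.8 to 49.5 and 48.2 TPM, by 0.49 ± 0.11 (edgeR adjusted p = 0.0078), and its TSS is 70 bp from the summit while that of Trp53 is 965 bp away. The libraries of the 2 groups did not overlap for either gene. Swt1, an RNA endonuclease, rose from 91.3, 77.1 and 71.6 to 170 and 175 TPM, while Trmt1l, a tRNA methyltransferase gene, fell from 34.5, 30.7 and 29.5 to 19.6 and 21.1 TPM.

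Eri2 fell by 0.83 and Rexo5 rose by 0.80, both exonuclease genes with 5′ ends that overlap by 48 bp. Washc5 of the WASH complex fell by 0.41 and Nsmce2, the SUMO ligase of SMC5/6, rose by 0.63 across an 80-bp gap. Lnx2 rose by 0.72 and Polr1d, a subunit of RNA polymerases I and III, fell by 0.42. Neurochondrin (Ncdn) fell by 0.96 and AU040320 rose by 0.33. The cochaperone gene Dnajb4 fell by 0.51 and Fubp1, a single-strand DNA-binding regulator, rose by 0.74. Inca1, an inhibitor of cyclin-dependent kinase, rose by 1.37 and the kinesin gene Kif1c fell by 0.29, and Thap4 fell by 0.58 while the autophagy protease gene Atg4b rose by 0.31. The difference between the genes was past the interaction threshold in all 9 pairs under every setting in which it was computed. The calls of both single genes were less stable: leaving out a library kept 5 pairs (each Stra8-deficient replicate), 1 pair (high-STRA8 replicate 1, Eri2 with Rexo5) or none (high-STRA8 replicate 2).

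Both genes were higher at 8 of the 10 strongest summits that were found in all 3 FLAG/FLAG libraries. The highest score, 227 in replicate 1 (111 and 132 in replicates 2 and 3), belonged to Pigp, of GPI anchor synthesis, and the ubiquitin ligase gene Ttc3, whose ends overlap by 76 bp. Pigp was at 214, 176 and 181 TPM without STRA8, 327 and 259 TPM at low STRA8 and 379 and 397 TPM at high STRA8. Ttc3 was at 85.1, 80.8 and 62.5, then 55.8 and 55.8, then 211 and 245 TPM, so that its low-STRA8 libraries lay below all the others while those of Pigp lay above the Stra8-deficient ones. The effective transcript length was 515 bp for Pigp and 6458 bp for Ttc3. Differences within pairs moved with transcript length in both comparisons with low-STRA8 cells (given below), and the part of length here was not tested. Against Stra8-deficient cells Pigp rose by 1.05 ± 0.12 and Ttc3 by 1.67 ± 0.13, and against low-STRA8 cells, which are compared with the same high-STRA8 libraries, Pigp had 0.18 ± 0.13 and Ttc3 rose by 1.94 ± 0.15. Lrrc42 and Hspb11, a subunit of intraflagellar transport, scored 188 and rose by 1.27 ± 0.09 and 0.77 ± 0.11.

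Both genes were also higher for the checkpoint-linked Cinp with the autophagy gene Tecpr2 (score 78.2), Ranbp1 of the Ran cycle with the tRNA methyltransferase gene Trmt2a (75.1), the recombination factor Rad51ap1 with D6Wsu163e (74.7), the CRL4 substrate receptor Dtl with the Integrator subunit Ints7 (74.0), and S100pbp with the tyrosyl-tRNA synthetase Yars (69.8). Ranbp1 and Trmt2a rose by 0.98 ± 0.12 and 0.80 ± 0.10, a difference of −0.18 (95% interval −0.57 to 0.21). Rad51ap1 rose by 2.02 ± 0.15 against 0.74 ± 0.12 for D6Wsu163e, and Dtl by 1.99 ± 0.18 against 0.69 ± 0.09 for Ints7, both past the interaction threshold. At the other 2 of the 10 strongest summits 1 gene rose. Spata5 rose by 1.05 ± 0.09 beside Nudt6 (0.04 ± 0.22, score 75.4), and Hipk2 rose by 0.62 ± 0.16 beside Tbxas1 (score 103), which did not exceed 0.0382 TPM in any library and was not tested.

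Of 72 meiotic prophase genes, 55 were higher with high STRA8 and 3 lower, against Stra8-deficient cells, and the 6 that stand in member pairs were all higher. Stag3, a meiotic cohesin subunit, rose by 0.85 ± 0.11 beside Gpc2 (0.32 ± 0.13, not passing). Terb2, which ties telomeres to the nuclear envelope, rose by 1.39 ± 0.15 with Patl2 (1.14 ± 0.15). 4930432K21Rik, a partner of the meiotic BRCA2 localizer, rose by 1.13 ± 0.15 with Cc2d1a (0.50 ± 0.11). Tex14, of the bridges between germ cells, rose by 0.71 ± 0.12 with the recombination gene Rad51c (1.08 ± 0.10).

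DNA replication genes were among the pair genes 12 times, and 10 of the 12 were higher and none lower, while 64 of all 89 on the list were higher and 3 lower. Lig1, the ligase that joins Okazaki fragments, rose from 93.0, 123 and 89.5 to 388 and 393 TPM, by 2.03 ± 0.16, and Zswim9 across a 105-bp gap rose by 0.63 ± 0.14. Pole, the catalytic subunit of DNA polymerase ε, rose by 1.25 ± 0.15 with the peroxisomal membrane gene Pxmp2 (1.10 ± 0.11). Wdhd1, a replisome factor also called AND-1, varied widely between replicates, at 30.7, 38.8 and 55.6 against 102 and 171 TPM, and rose by 1.81 ± 0.36 with Socs4 (0.92 ± 0.12). The origin subunit Orc4 rose by 0.92 ± 0.19 beside Mbd5 (−0.29 ± 0.16), Mtbp rose by 0.55 ± 0.14 beside Mrpl13 (0.04 ± 0.12), and Pole3 rose by 0.48 ± 0.10 beside 4933430I17Rik (0.73 ± 0.48). Dbf4, the activator of the CDC7 kinase, was at 132, 114 and 107 against 125 and 128 TPM, with overlapping libraries and 0.24 ± 0.10, and its partner Slc25a40 did not pass either.

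Of 19 DNA repair and checkpoint genes in the pairs, 9 were higher and none lower, against 53 and 18 of the 141 tested on the list. Pms2, of mismatch repair, rose from 33.4, 34.1 and 32.2 to 77.9 and 76.4 TPM, by 1.35 ± 0.10, and Aimp2 by 0.61 ± 0.14. The glycosylase gene Mbd4 rose by 1.48 ± 0.19 with the ciliary gene Ift122 (1.01 ± 0.11). Tdp2, which removes trapped topoisomerase II, rose by 1.02 ± 0.12 beside Acot13 (0.09 ± 0.28). Gen1, a Holliday junction resolvase, had 0.21 ± 0.15 beside Smc6, which rose by 0.56 ± 0.13. Zranb3 had −0.04 ± 0.13 beside R3hdm1, which rose by 0.49 ± 0.14, and neither Rmi1 (0.38 ± 0.13) nor its partner Hnrnpk (0.21 ± 0.10) passed.

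The other lists were mixed. Those made by symbol prefix (mitochondrial, RNA processing and chromatin) did not count pair genes with a letter right after the prefix. Among these were Ndufs1, Sdha, Uqcrh, Slc25a25, Hnrnpa1, Hnrnpk and Setdb2. Of 12 cell cycle and mitosis genes in the pairs, 10 were higher and 1 lower, against 81 and 27 of 163 on the list. The lower one was Ska3, a kinetochore gene, at −0.42 ± 0.12, while Ska2 of the same complex was among the largest joint rises. Of the 17 mitochondrial genes counted, 4 were higher and 1 lower (Mrps30, −0.53), against 15 and 36 of 163. The 4 were the import subunit Timm29 (0.80), the ribosomal Mrpl18 (0.68), Cox15 of heme A synthesis (0.44) and Mtx1 (0.37). Of the 34 genes of RNA processing and the ribosome counted, 15 were higher and 2 lower, against 116 and 77 of 538. The lower ones were the ribosome assembly gene Nop14 (−0.70) and Polr1d (−0.42). Of 10 chromatin genes, 3 were higher (the HP1 genes Cbx5, 1.59, and Cbx3, 0.50, and Setd3, 0.36) and 1 lower (the arginine methyltransferase Prmt7, −0.41), against 45 and 38 of 214. These genes are named because the counts are small, and were chosen after their values were seen.

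Of the 9 pairs long known to be head to head that were found among the members, both genes were higher in Tk1 with Afmid, Smc1b with Ribc2, Rad51c with Tex14 and Ppat with Paics. Ppat and Paics both encode enzymes of purine synthesis, and their ends overlap by 210 bp. Ppat was at 45.7, 47.0 and 40.2 against 93.8 and 86.0 TPM and Paics at 178, 188 and 154 against 361 and 355 TPM. They rose by 1.10 ± 0.11 and 1.11 ± 0.10, a difference of 0.01 (95% interval −0.29 to 0.32). Brca1, of homologous recombination, rose from 29.6, 35.6 and 21.9 to 84.8 and 91.3 TPM, by 1.70 ± 0.17, while the autophagy receptor gene Nbr1 was at 100, 85.1 and 91.1 against 95.2 and 97.4 TPM (0.18 ± 0.11), a difference of 1.53 ± 0.23 (edgeR interaction adjusted p = 0.0014).

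The replicative helicase gene Mcm4 rose by 1.11 ± 0.10 and Prkdc, the catalytic subunit of DNA-PK, had 0.41 ± 0.18. Gart, of purine synthesis, fell by 0.47 ± 0.10 beside Son (0.09 ± 0.11). The chaperonin genes Hspd1 and Hspe1 did not pass, at 616, 574 and 508 against 539 and 532 TPM and at 559, 499 and 541 against 441 and 459 TPM, although their summit scored 59.3. The list of known pairs holds 35 tested genes, of which 18 were higher and 5 lower, and the 18 in member pairs had 11 higher and 1 lower.

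High-STRA8 and low-STRA8 cells, both Stra8 heterozygous, were compared next. The comparison shares its high-STRA8 libraries with the one above. Of the 590 genes, 216 were higher in high-STRA8 cells and 65 lower, against 21.3% and 18.3% of all genes. Both genes were higher in 43 of 289 pairs (14.9%, against 6.46% of all head-to-head pairs), 1 was higher in 107 (37.0%, against 23.9%), both were lower in 6 (2.08%, against 5.32%), 1 was lower in 30 (10.4%, against 22.2%), and the genes went apart in 21 (7.27%, against 6.27%). They changed unequally in 140 pairs (48.4%, against 43.0%). The fold changes of the 2 genes had a Pearson r of 0.086 across member pairs and 0.089 across the other head-to-head pairs. Differences here moved with transcript length: the longer gene of a pair had the larger fold change in 189 of 289 pairs (153 against Stra8-deficient cells), and the correlation of the difference with the log2 ratio of effective lengths was 0.46 across pairs (0.18 against Stra8-deficient cells). Its part in the result was not tested beyond a fit with a length offset, which gave 205 genes higher, 52 lower and 133 unequal pairs. Without high-STRA8 replicate 2 there were 105 genes higher, 12 lower, 8 pairs with both higher and 76 unequal pairs. Without high-STRA8 replicate 1 there were 137, 24, 17 and 93, and without low-STRA8 replicate 2 there were 181, 37, 27 and 105.

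Across the 3 groups, the 2 genes of a pair changed in the same or in different comparisons. Stra8-deficient and low-STRA8 cells differ in genotype, so the order of the 3 groups is not one of time. Across pairs, the difference between the genes moved with the log2 ratio of effective lengths in both comparisons with low-STRA8 cells. Its correlation was −0.37 from Stra8-deficient to low-STRA8 cells and 0.46 from low-STRA8 to high-STRA8 cells. The part of length was not tested in the examples below, nor in the low-STRA8 levels of Smc1b, Golgb1, Pigp and Ttc3 given above. Tk1 and Afmid were higher in high-STRA8 than in low-STRA8 cells (0.74 ± 0.23 and 0.93 ± 0.23) and higher in low-STRA8 than in Stra8-deficient cells (2.58 ± 0.22 and 1.57 ± 0.21). Pole was at 147, 166 and 114 TPM without STRA8 and at 137 and 105 TPM at low STRA8, with overlap, and at 318 and 321 TPM at high STRA8, a rise of 1.39 ± 0.17 over low-STRA8 cells. Pxmp2 on the other side was at 95.5 and 76.9 TPM, above the 55.6, 59.7 and 55.9 TPM of the Stra8-deficient libraries, a rise of 0.81 ± 0.11, and had 0.29 ± 0.12 from low to high STRA8. Myo9b fell by 1.14 ± 0.20 from Stra8-deficient to low-STRA8 cells while Haus8 rose by 0.59 ± 0.14, and both were higher in high-STRA8 cells.

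Between low-STRA8 and Stra8-deficient cells fewer pair genes passed, 145 higher and 53 lower, against 10.2% and 13.9% of all genes. Both genes were higher in 23 pairs (7.96%, against 3.23% of all head-to-head pairs), 1 higher in 84 (29.1%, against 20.6%), 1 lower in 39 (13.5%, against 14.2%), both lower in none (against 1.14%), and they went apart in 13 (4.50%, against 2.57%). The genes changed unequally in 88 pairs (30.4%, against 24.7%), and their fold changes had a Pearson r of 0.085, against 0.23 across the other head-to-head pairs. The direction of these genes depends on the scale: limma on log2(TPM + 1), on which the median of all genes stood at −0.15, a move of −0.18, gave 72 higher and 97 lower, and 507 and 2696 of all genes, while a length offset gave 119 and 22. The median log2 fold change of the pair genes was −0.02 on the TPM scale and 0.17 in edgeR, which is 0.13 and 0.14 above the median of all genes on the same scale. The longer gene of a pair had the larger fold change in 102 of 289 pairs, and the correlation of the difference with the log2 ratio of effective lengths was −0.37, of opposite sign to the other 2 comparisons. The part of length in the unequal changes was not tested. Without low-STRA8 replicate 1 there were 85 higher, 25 lower and 8 pairs with both higher, without Stra8-deficient replicate 2 there were 96, 31 and 11, and without low-STRA8 replicate 2 there were 105, 50 and 11.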

How the data were processed

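The authors aligned ChIP-seq reads to mm10 with Bowtie 1.2.0 and called summits with MACS2 2.1.1.20160309 in each library against its input. The deposited score is the −log10 of MACS2's p-value. For RNA-seq the authors gave reads to transcripts with kallisto 0.43.0. Per the authors' tables, each library has estimated counts, effective lengths and TPM per transcript, and TPM per gene. Peaks in blacklisted regions had been taken out by the authors. The authors' normalised counts (DESeq2 1.18.1) were not used.

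Of 75737 transcripts, 75554 matched GENCODE M21, and 42822 protein-coding transcripts were summed to 21810 genes, with TPM rescaled per library. These sums were within 1% of the authors' gene TPM for at least 99.2% of 12340 symbols in each library. Estimated counts were rounded. Genes over 1 TPM in at least 1 of 7 libraries (12523) were tested with edgeR 4.0.16 (TMM, robust quasi-likelihood F test, 4 residual degrees of freedom), with contrasts from 1 fit over 3 groups, Benjamini-Hochberg adjustment and a threshold of 0.05. The common biological coefficient of variation was 0.174. Head-to-head pairs are protein-coding genes on opposite strands whose TSSs lie within 2 kb of each other. The interaction of gene and group was fitted over the 1052 pairs with both genes tested. Intervals of differences use the t quantile at 4 degrees of freedom. Counting intervals (Wilson, 95%) cover counting error only. The scripts were tested on simulated data, in which the share of false calls among single genes was above the nominal rate of the threshold (high-STRA8 against Stra8-deficient), while that among pairs was below it. Genome and annotation were compared at 300 transcript starts, of which 300 were identical over 20 bases.

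The members and gene lists were chosen with earlier results of these data known. Named pairs are the 10 with the highest score in all 3 FLAG/FLAG libraries, the 8 with the largest rise of the gene that rose least, the 8 most unequal with both genes at 5 TPM or more in a group, all that went in opposite directions, up to 8 per list (meiotic prophase, DNA replication, DNA repair and checkpoints) by score, and known or doubly listed pairs. Lists of mitochondrial, RNA processing and chromatin genes were made by symbol prefix, without pair genes in which a letter follows the prefix. The main alternatives were DESeq2 1.42.0, limma 3.58.1 on TPM, other filters, a length offset, a replicate block, other transcript choices and leaving out each library. A few genes that the naming rule would give are not reported here.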

Additional observations from a re-analysis of the deposited data

How the results depend on the processing

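The member summits numbered 160 with a partner in both other FLAG/FLAG libraries and 204 when FLAG/FLAG replicate 3 was the starting list, and leaving out a library gave 177 (without FLAG/FLAG replicate 1; 186 without replicate 2) to 320. CNCCTCAG was at 5.73% of members within 25 bp, 21.02% within 100 bp and 16.3% of members found in all 3 libraries. Of the pair genes lower at high STRA8 than without STRA8, limma counted 62 on log2(TPM + 1) and 61 on log2(TPM + 0.1). From Stra8-deficient to low-STRA8 cells, a fit of only these 2 groups gave 88 higher, 31 lower and 9 pairs with both higher, limma gave 72 and 71 higher, 97 and 97 lower and 8 and 8 pairs at the 2 pseudocounts, and the length offset gave 22 lower. The cause of these shifts was not tested. The TPM scale moved the median of all genes by −0.06 (high-STRA8 against Stra8-deficient), 0.10 (high against low) and −0.18 (low against Stra8-deficient). It moved the share of calls that were higher, for all genes, from 50.7% to 40.6%, from 53.8% to 63.4% and from 42.4% to 15.8%. 

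Leaving out 1 library gave, for high-STRA8 against Stra8-deficient cells, 172 to 267 genes higher, 7 to 30 lower, 38 to 74 pairs with both higher and 56 to 131 unequal pairs. For high-STRA8 against low-STRA8 cells it gave 105 to 198, 12 to 61, 8 to 36 and 76 to 124, and for low-STRA8 against Stra8-deficient cells 85 to 140, 25 to 53 and 8 to 26. With a single library left in a group, that library was assumed to vary like the others. Same-numbered RNA libraries did not deviate together from their group means (correlations −0.168 to −0.031). In groups of 2 libraries these deviations mirror each other, so the correlations cannot exclude a pairing. With the replicate block, high-STRA8 against Stra8-deficient cells gave 230 higher, 21 lower, 58 pairs with both higher and 121 unequal pairs, high against low STRA8 gave 204, 56, 37 and 140, and low-STRA8 against Stra8-deficient cells gave 105, 54 and 16. A crossed replicate block, chosen after the data were seen, gave 195 higher and 59 lower between high and low STRA8. Among the values of the named genes under all alternatives, 1393 kept direction and side of the threshold, 77 lost the call and 12 gained one. Among the differences within named pairs the numbers were 584, 39 and 11, and none reversed. The ChIP score depends on the depth of a library, and sites under the limit of the peak caller are not among the summits.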
